A study of Homo sapiens and Mus musculus with 24 samples.

Results

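The regions described here are sites of mouse fetal liver chromatin where hemogen, BRG1 and acetylated histone H3 lysine 27 (H3K27ac) were all called in wild type (WT), and where BRG1 was still called in both libraries from hemogen knockout (KO) livers. They were found from the authors' peak lists of single libraries. Overlapping peaks of the 2 libraries of a group, sharing at least 1 bp on the 19 autosomes or chromosome X, were merged, and a merged region was used where it held a peak of each library. Of 13213 WT BRG1 regions, 12763 (96.6%) overlapped a hemogen region, 8442 (63.9%) an H3K27ac region and 8223 (62.2%) both. Of these 8223 acetylated hemogen-BRG1 regions, 2193 (26.7%) overlapped a peak of KO library 1 and 3325 (40.4%) a peak of KO library 2. Over all WT BRG1 regions these shares were 18.4% and 28.9%. Both KO lists held a peak at 1506 regions, which are called kept regions below. They made up 18.3% of the acetylated hemogen-BRG1 regions and 11.4% of all WT BRG1 regions, beside 12.1% of WT BRG1 regions of any kind that both KO lists held.

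Hemogen is found in the nuclei of haematopoietic cells and is expressed along the red cell lineage. BRG1 is an ATPase of the BAF (SWI/SNF) complexes, which move or evict nucleosomes and so open chromatin for transcription factors. H3K27ac marks active promoters and enhancers, and the fetal liver is the main site of red cell formation at mid-gestation.

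The series measured occupancy by chromatin immunoprecipitation and sequencing, to ask where hemogen and BRG1 meet active regulatory chromatin in erythroid cells and what becomes of BRG1 without hemogen. All mouse groups were fetal livers of embryos at day 14.5, with 2 libraries each. The WT groups were precipitated with antibodies against the HA tag (ab9110, for hemogen), BRG1 (ab110641) and H3K27ac (ab4729), and the KO group, from hemogen KO embryos, with the BRG1 antibody. Not analysed here were the input libraries, 2 per genotype, and 12 samples of the human erythroleukaemia line K562. How the HA tag came into the livers is not said in the labels, and HA chromatin of livers without the tag was not used here. They also do not say whether the 2 libraries of a group came from separate animals, whether livers were pooled, or whether a given library was made by tagmentation or by ligation. Whole livers hold several cell types, and the cell makeup was not checked because no gene names were used here. In such bulk chromatin, fewer cells with a site bound and less binding per cell cannot be told apart.

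The KO lists were far shorter than the WT lists. They held 3209 and 5602 peaks, against 26330 and 21167 in WT for BRG1, 53063 and 42871 for hemogen and 69883 and 45548 for H3K27ac. The depth of each immunoprecipitate, read from the authors' fold and p-values relative to WT BRG1 library 1, was 0.404 and 0.330 in the KO. It was 1.04 for WT BRG1 library 2 and between 0.721 and 1.02 for the other WT libraries. List length and depth move with genotype, and their part in which regions were kept was not tested. A region without a KO peak is therefore one that was not called, which does not show that BRG1 was absent. With 2 libraries against 2, an exact permutation test cannot give a two-sided p below 0.33. Since the same lists chose the regions, the values below are a description with no test.

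Kept regions stood high in every WT list. For each region, the strongest peak of a library was ranked by the percentile of its −log10 p-value within that library's list, so that 100 is the strongest peak. For WT and KO BRG1 this was a peak overlapping the region. For hemogen and H3K27ac it was the strongest peak in any merged region of that mark overlapping the BRG1 region. Such a peak could itself lie outside the BRG1 region. In WT BRG1 library 1 the kept regions had a median percentile of 92.7, with the middle of the distribution (lower to upper quartile) from 83.8 to 97.3. In WT BRG1 library 2 the median was 91.1, from 77.9 to 96.6. Both libraries thus placed most kept regions among their strongest peaks, although the lowest kept region reached only a percentile of 0.0361 in library 1 and 0.0165 in library 2.

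The other WT marks showed the same placing. Hemogen medians were 93.2 and 90.6 in libraries 1 and 2, and H3K27ac medians were 94.7 and 91.0. Of the 1506 kept regions, 1181 (78.4%) lay at or above the 50th percentile in all 6 WT lists, 754 (50.1%) at or above the 75th and 220 (14.6%) at or above the 90th. Only 18 (1.20%) lay below the 50th percentile in both WT BRG1 lists. The same counts over all acetylated hemogen-BRG1 regions were not made, so these shares are not shown to be particular to kept regions. Acetylated hemogen-BRG1 regions in no KO list had median percentiles of 84.9 for hemogen, 72.0 for H3K27ac and 54.5 for WT BRG1.

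In the KO lists the same regions were spread more evenly. The median percentile was 58.2 in KO library 1, with quartiles of 32.1 and 81.6, and 67.6 in KO library 2, with quartiles of 41.1 and 86.9. Percentiles from lists of such different lengths do not show a change in binding. They do show that the kept regions filled most of the range of both KO lists. Of the peaks in the KO lists, 61.6% in library 1 and 38.4% in library 2 lay at a kept region. Among the 100 strongest peaks the share was 75% in each KO library. Kept regions were chosen for holding KO peaks, so these shares are partly set by the rule. On the chromosomes examined, 2938 of 3205 KO library 1 peaks and 4702 of 5592 KO library 2 peaks lay at some WT BRG1 region. Of the 100 strongest, 99 and 100 did.

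The other acetylated hemogen-BRG1 regions fell into 4371 (53.2%) that were in part of the KO lists, meaning 1 library list or only the KO group list, and 2346 (28.5%) that were in no KO list. Averaged over the 2 libraries of a group, the median WT BRG1 percentile was 90.3 in kept regions, 72.9 in regions partly called and 54.5 in regions in no KO list. For H3K27ac it was 91.0, 80.0 and 72.0. Hemogen separated the classes least, with 91.1, 85.5 and 84.9. The quartiles of the 3 classes overlapped for hemogen and for H3K27ac, whereas for WT BRG1 the lower quartile of kept regions (80.2) lay above the upper quartile of regions in no KO list (70.5).

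**Figure D1:**
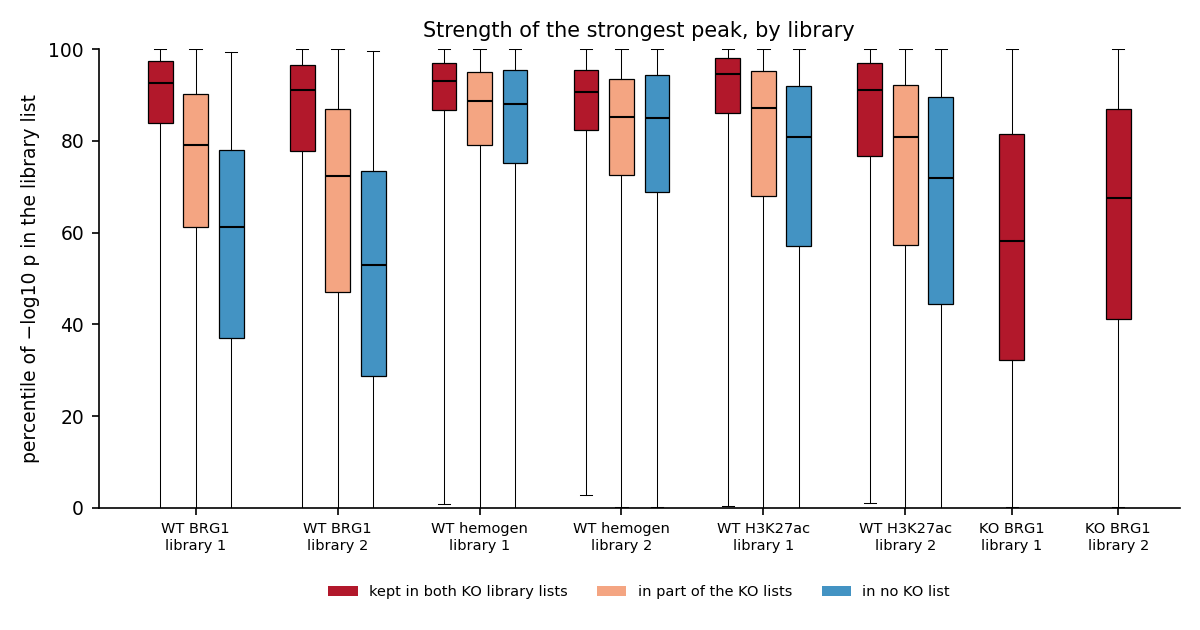
Percentile of −log10 p of the strongest peak for each region within a library's own list (y axis), for the 8 library lists (x axis). BRG1 peaks overlap the region, while hemogen and H3K27ac peaks lie in an overlapping merged region of their mark. Boxes run from the lower to the upper quartile with a line at the median, and whiskers reach the lowest and highest region; kept regions (red, n = 1506) have medians between 90.6 and 94.7 in the 6 WT lists, and 58.2 and 67.6 in the KO lists.

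The authors' fold enrichment, the summit height over the local background, gave a narrower picture. At kept regions the median fold was 5.81 and 5.49 in the WT BRG1 libraries (5.65 ± 0.22, SD, n = 2), with a range from 2.09 to 17.1 in library 1. In the KO libraries it was 4.42 and 4.55 (4.48 ± 0.09, SD, n = 2), with a range from 2.52 to 10.2 in library 1. The libraries of a genotype were closer to each other than to those of the other genotype, while the ranges over regions overlapped. The lowest background of the list was 0.56 and 0.61 in the KO libraries, against 2.36 and 1.91 in the WT BRG1 libraries. The part of background and depth in the folds was not tested, and no change in binding is read from them. Hemogen folds had medians of 6.33 and 5.71, and H3K27ac folds of 5.15 and 5.02.

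Fold and p-value together allow the fragments piled up at a summit to be recovered, if the caller's usual formulas are assumed. A single reading was possible for between 93.9% and 100% of the kept regions per library. The median summit held 42.0 fragments in both WT BRG1 lists. KO summits held 33.0 and 30.0. Divided by the relative depth of the library, this was 42.0 and 40.4 in WT (41.2 ± 1.11, SD, n = 2) and 81.6 and 90.9 in the KO (86.2 ± 6.54, SD, n = 2). The KO summit was the higher per depth in 99.7% to 100% of the kept regions, depending on the pair of libraries. The rule chose regions with a KO peak, and a KO peak needs a high summit, so no change in binding is read from this value.

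The local background at these summits was raised too. It was a median of 5.84 and 6.26 times the lowest background of the list in the KO libraries, against 2.22 and 2.49 times in the WT BRG1 libraries. In the group lists the kept regions reached 32.7 fragments per relative depth in WT and 63.4 in the KO, beside 25.7 and 45.9 at regions partly called. Summits per depth were thus higher in the KO list in both classes. Only regions with a KO group list peak entered, 1505 kept and 4245 partly called. Both classes were thus chosen on a KO summit, and no change in binding is read from these heights. The part of background and depth in these heights was not tested.

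Kept regions were wide in WT, and the KO peaks covered only a portion of them. The median width was 1746 bp (305 to 7937 bp), against 1042 bp for regions partly called and 670 bp for regions in no KO list. A WT BRG1 peak at a kept region had a median width of 1444.5 and 1119.5 bp in the 2 libraries, and the strongest KO peak 280 and 343.5 bp. WT BRG1 peaks covered a median of 96.2% and 84.6% of the region and KO peaks 21.2% and 27.9%. Most kept regions held a single KO peak, 1152 (76.5%) in library 1 and 1037 (68.9%) in library 2, while 93 and 123 held more than 2.

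The KO peaks of the 2 libraries met within the region in 1304 kept regions (86.6%) and did not meet in the other 202 (13.4%). The strongest peaks of the 2 KO libraries overlapped in 1058 (70.3%). Where they did not meet, the regions were somewhat wider, with a median of 1877 bp against 1719 bp, and lower in the KO lists, with a median percentile of 49.1 against 61.2. Their KO summits lay a median of 558.5 bp apart, against 133.5 bp where peaks met. For these 202 regions, a call in both KO libraries means a call of the same WT region, not of the same position.

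The share of regions kept followed WT BRG1 strength closely. When the 8223 acetylated hemogen-BRG1 regions were put in deciles of WT BRG1 strength, 1.70% of the lowest decile was kept, 9.23% of decile 5, 35.0% of decile 9 and 62.1% of the highest. Deciles of region width gave a similar course, from 1.58% to 59.9%. H3K27ac strength gave a shallower one, from 6.20% to 39.5%.

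Hemogen strength did not follow this course to the top. The share kept rose from 5.59% in the lowest decile to 27.5% in decile 8 and was 20.9% in the highest. In that highest hemogen decile, 32.7% of regions were in no KO list, close to the 28.5% over all acetylated hemogen-BRG1 regions, whereas the highest decile of WT BRG1 strength had 2.07%. The regions with the strongest hemogen were therefore kept about as often as the average region.

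**Figure D2:**
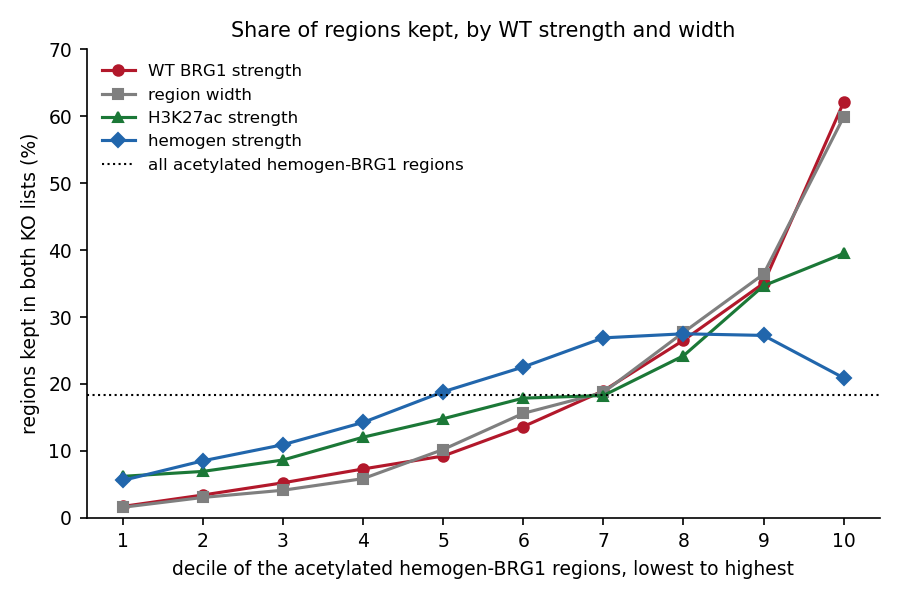
Share of acetylated hemogen-BRG1 regions kept in both KO library lists (y axis, percent) by decile of WT BRG1 strength, region width, H3K27ac strength or hemogen strength (x axis). The dotted line is the share over all 8223 regions, 18.3%; the BRG1 and width curves end at 62.1% and 59.9%, the H3K27ac curve at 39.5% and the hemogen curve at 20.9%.

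Within deciles of WT BRG1 strength, so among regions of like BRG1 strength, the marks still differed. From the lowest to the highest quintile of H3K27ac strength, the share kept, averaged over the 10 deciles, went from 11.2% to 24.7%. For region width it went from 9.25% to 30.7%. How far width alone makes an overlap with a KO peak more likely was not tested. For hemogen strength it was 15.8%, 19.6%, 22.1%, 20.7% and 13.5% from the lowest to the highest quintile. Among the 823 regions with the strongest WT BRG1, 48.5% of the quintile with the strongest hemogen was kept, against 70.3% of the middle quintile. H3K27ac and hemogen thus differed in where their strongest regions fell.

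Kept regions that were strong in the KO were also wide and strong in WT. In the lowest quartile of KO strength the median width was 1502 bp and the median WT BRG1 percentile 86.3, and in the highest quartile 2174 bp and 95.1. Over single kept regions the relation was weak. Spearman's rho over the 1506 regions was between 0.19 and 0.27 for the 4 pairs of a WT with a KO BRG1 library. Between the 2 KO libraries it was 0.15, and between the 2 WT BRG1 libraries 0.52. The order of kept regions was therefore poorly shared even between the KO libraries. All 4 rhos of a WT with a KO library were above the rho between the KO libraries. These rhos are over regions of the same libraries, chosen by a threshold in each list, and are given as a description.

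When the WT BRG1 lists were cut to the lengths of the KO lists, keeping the strongest peaks, they shared 2015 or 1989 acetylated hemogen-BRG1 regions, depending on which library took which length. Of the kept regions, 59.5% and 58.2% were among them. Kept regions made up 44.5% and 44.0% of these strongest WT regions, and 130 and 143 of the strongest WT regions were in no KO list. About 4 in 10 kept regions were thus outside the strongest WT sites at equal list length.

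The positions of WT and KO BRG1 summits were then compared. The summit is the position of the highest pile-up in a peak. The rule did not use summits, but it required KO peaks to overlap the WT region. That limits how far apart the summits can lie, and the distance this limit alone would give was not computed. In kept regions the strongest summits of WT BRG1 libraries 1 and 2 lay a median of 152 bp apart, and those of the 2 KO libraries 166 bp. Between a WT and a KO library the 4 medians were 172, 176.5, 187 and 206.5 bp. All 4 were above both distances between libraries of 1 genotype, but their quartiles overlapped: 66.0 to 394.25 bp between the WT libraries, and 73.0 to 485.75 bp for the widest of the WT to KO pairs. A summit within 100 bp was found in 36.7% of regions between the WT libraries and in 31.9% to 35.2% between WT and KO.

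Hemogen summits lay farther away, but were taken over a wider span. The strongest hemogen peak came from the whole overlapping merged hemogen region. It did not have to overlap the BRG1 region, whereas KO BRG1 peaks did, so these distances are unlike measures. From the WT BRG1 summit to the strongest hemogen summit of the same library number, the median was 362 and 374 bp (368 ± 8.49 bp, SD, n = 2). The distance was 260.5 ± 2.12 bp in regions partly called and 287.5 ± 2.12 bp in regions in no KO list. Among regions of like width, the longer distance of kept regions was seen in the widest quintile. There it was 488 and 524 bp in kept regions, which had a median width of 2375.5 bp, against 297 and 212 bp in 93 regions in no KO list, with a median width of 1941 bp. In the fourth quintile it was 283 and 304.5 bp against 276.5 and 310 bp, so there the classes overlapped. In the narrowest quintile the order was the opposite, with 171 and 95.5 bp in 38 kept regions and 339 and 320.5 bp in regions in no KO list.

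The KO BRG1 summit lay slightly farther from hemogen than the WT BRG1 summit. The nearest WT hemogen summit lay a median of 298.5 and 259.5 bp from it (279 ± 27.6 bp, SD, n = 2), and 257 and 233 bp from the WT BRG1 summit (245 ± 17.0 bp, SD, n = 2). Both KO values were above both WT values, though the lower KO value (259.5 bp) and the higher WT value (257 bp) were close. The nearest H3K27ac summit was 147 and 137 bp from the KO summit (142 ± 7.07 bp) and 157 and 154 bp from the WT BRG1 summit (155.5 ± 2.12 bp).

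**Figure D3:**
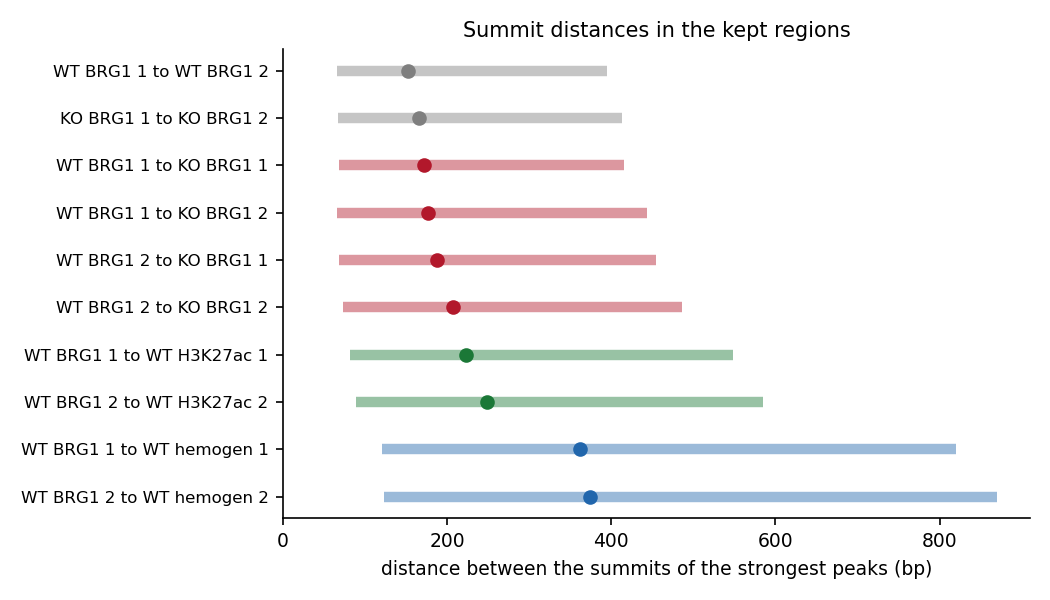
Distance in bp (x axis) between the summits of the strongest peaks of 2 library lists in the 1506 kept regions, one pair of libraries per line (y axis). BRG1 peaks overlap the region, while hemogen and H3K27ac peaks lie in an overlapping merged region of their mark and may lie outside it. Points are medians and bars the lower to upper quartile; distances of WT to KO BRG1 (red, medians 172 to 206.5 bp) lie just beyond those between libraries of 1 genotype (grey, 152 and 166 bp), and distances to hemogen (blue) are the longest of the pairs drawn.

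In kept regions BRG1 sat within acetylated peaks more often than elsewhere. The WT BRG1 summit lay inside an H3K27ac peak in 85.2 ± 5.12% of kept regions (SD, n = 2 libraries), in 74.8 ± 3.33% of regions partly called and in 66.0 ± 4.49% of regions in no KO list. All 3 classes overlap an H3K27ac region by the rule, and a kept region overlapped a median of 2 H3K27ac peaks, against 1 in the other classes. The excess of kept regions over regions in no KO list was 19.3 percentage points. It was 12.7 points with an overlap of 50% of the shorter interval and 11.3 points in the group lists. The KO BRG1 summit was inside a WT H3K27ac peak in 88.4 ± 5.02% of kept regions. The hemogen summit was inside one in 61.8 ± 6.34% of kept regions, a difference from BRG1 larger than the spread between libraries. The hemogen peak did not have to overlap the BRG1 region, so the BRG1 and hemogen shares are unlike measures. H3K27ac summits within 1.0 kb on both sides of the WT BRG1 summit were about as frequent in each class, at 34.1 ± 1.13%, 33.2 ± 3.35% and 35.0 ± 3.41%.

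Among regions of like width the share was higher in kept regions than in regions in no KO list in both libraries and all 5 width quintiles, and the gap was larger in the wider ones. In the narrowest quintile, 94.7% and 76.3% of the 38 kept regions had the WT BRG1 summit inside an H3K27ac peak of libraries 1 and 2, against 72.4% and 68.4% of regions in no KO list. In the widest quintile it was 87.0% and 81.3% of 792 kept regions, against 47.3% and 43.0% of 93 regions in no KO list. The wide regions that were not called in the KO therefore had their BRG1 summit outside H3K27ac peaks in most cases. H3K27ac peaks themselves were wider at kept regions, with median widths of 824 and 681 bp against 470.5 and 382 bp at regions in no KO list. The part of that width in the difference was not tested.

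**Figure D4:**
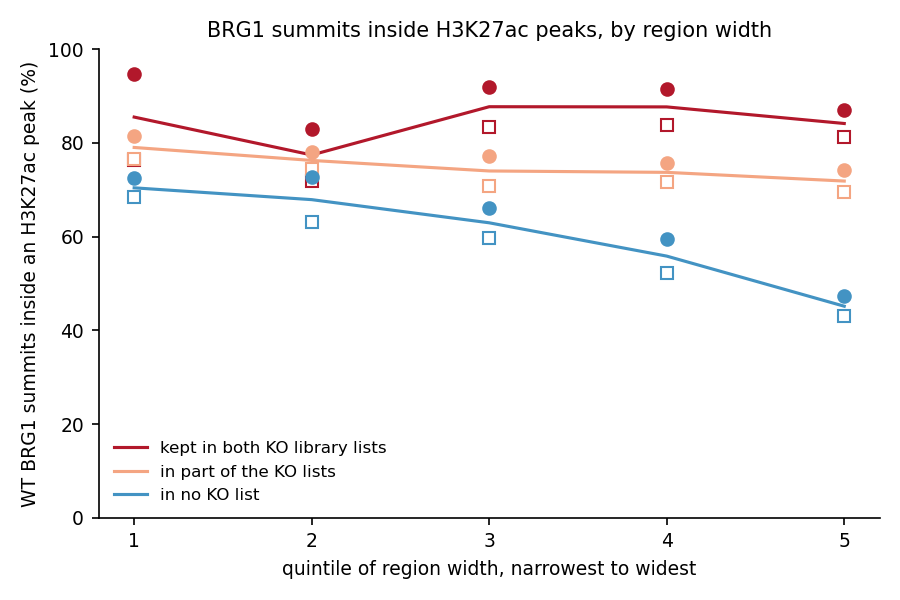
Share of regions whose WT BRG1 summit lies inside an H3K27ac peak of the same library number (y axis, percent), by quintile of region width (x axis). Circles are library 1, open squares library 2 and lines their mean; kept regions lie at 87.0% and 81.3% in the widest quintile and regions in no KO list at 47.3% and 43.0%.

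The kept region with the highest lowest percentile over all 8 lists was chr19:5841762-5849698, which at 7937 bp was also the widest of the kept regions. Its fold was 7.02 and 6.91 in WT BRG1, 8.46 and 6.70 in hemogen, 6.57 and 8.01 in H3K27ac and 5.87 and 6.79 in KO BRG1. It held 5 and 6 WT BRG1 peaks and 6 peaks in each KO library, and its KO summits lay 1927 bp apart. Next came chr3:122245405-122248202, with folds of 8.76 and 7.42 in WT BRG1 and 5.04 and 6.07 in KO BRG1. Its summits coincided more closely, 116 bp apart between the WT libraries, 67 bp between the KO libraries, and 201 and 152 bp between WT and KO libraries of the same number. The region chr11:86355832-86358504 had 11.2 and 8.58 in WT BRG1 and 6.28 and 5.15 in KO BRG1. At all 3 the KO folds were below the WT BRG1 folds of the same library number, from which no change in binding is read.

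The following of the 10 regions that ranked high throughout were chr7:80204120-80210634, chr2:180710090-180712683, chr19:29250796-29253503 and chr6:134919498-134922461. The remaining ones were chr17:29490770-29492404, chr5:33017489-33020354 and chr11:109470352-109474645. Among them chr7:80204120-80210634 stood out for hemogen, with folds of 14.7 and 8.08, beside 8.21 and 6.99 in WT BRG1. Positions are those of the authors' lists, whose build no source used here names and which fit mm10.

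By mean percentile in the KO lists, chr11:109470352-109474645 led, with KO folds of 7.76 and 6.28 and WT BRG1 folds of 9.33 and 8.11. Next were the wide chr19:5841762-5849698 and then chr4:62514963-62519904. The latter had the highest mean hemogen percentile of all kept regions (99.98), with hemogen folds of 18.8 and 8.02. Its H3K27ac folds were 9.33 and 12.6, its WT BRG1 folds 7.79 and 5.16 and its KO folds 6.84 and 6.78. The region chr5:100499437-100500393 was only 957 bp wide and had higher folds in KO library 1 (9.32) than in WT BRG1 library 1 (5.30), while libraries 2 gave 6.66 and 8.13. The 2 libraries thus disagreed on the order of WT and KO there. The fifth was chr13:58126649-58128514, with KO folds of 6.56 and 7.17.

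At the weak end of the WT BRG1 lists, chr14:30951560-30951872 was 313 bp wide and had a mean WT BRG1 percentile of 10.0. Its folds were 2.85 and 3.33 in WT BRG1, 3.97 and 4.35 in hemogen, 3.48 and 3.39 in H3K27ac, and 5.47 and 5.22 in KO BRG1. The KO folds were the highest of the 8, and its mean KO percentile was 57.8. The next 4 were chr17:70990747-70991410, chr5:121837087-121837665, chr7:120843163-120844294 and chr17:31563431-31564085, with mean WT BRG1 percentiles between 25.1 and 27.1 and mean KO percentiles between 15.9 and 30.4. Each of the 5 was in the KO group list as well.

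Close to the rule's threshold, the kept region with the weakest peak in its weaker KO list was chr6:30302821-30304786. Its −log10 q-value was 4.77 in KO library 1 and 1.37 in KO library 2, with folds of 4.71 and 2.57. The region chr9:72132812-72133538 had 1.37 and 3.09. Just outside the rule, chr1:58711271-58712363 had a −log10 q-value of 13.9 in KO library 2, with a fold of 8.18, and no peak in KO library 1. In WT BRG1 it had folds of 5.41 and 7.69. The region chr14:87140777-87141294 had 11.7 in KO library 2 and likewise none in library 1. The 5 strongest regions left out in this way all had their single KO call in library 2 and were all in the KO group list. Both traits were common. Of the 4371 regions partly called, 4245 were in the KO group list, counting 1865 that were in that list only. KO library 2 held a peak at 3325 acetylated hemogen-BRG1 regions, against 2193 for library 1. The median −log10 q-value of kept regions in KO library 2 was 4.90, so these 5 had stronger peaks there than most kept regions.

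Kept regions lay on every chromosome examined. The share of acetylated hemogen-BRG1 regions that was kept ran from 13.0% on chromosome X (7 of 54) to 26.3% on chromosome 13 (78 of 297). Chromosome 11 held the most, 176 of 810 (21.7%), and chromosome 7 kept 95 of 610 (15.6%). The median WT BRG1 percentile of the acetylated hemogen-BRG1 regions was 76.2 on chromosome 13 and 51.8 on chromosome X, the second highest and the lowest of the 20 chromosomes. It was highest on chromosome 18, at 77.2, where 37 of 229 (16.2%) were kept. The order of the shares thus did not follow this percentile throughout. The part of BRG1 strength in these shares was not tested.

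By the library lists, most kept regions stood alone. With the gap limit set between 12 and 13 kb, 198 of the 1506 (13.1%) had another kept region nearby, in 83 pairs, 9 groups of 3 and 1 group of 5. The share was 21.7% without WT BRG1 library 1 and 26.9% without KO library 1. It was 29.7% with a peak in either KO list, 3.26% with a −log10 q of at least 5 and 51.5% in the group lists, where most regions therefore had such a neighbour. Of the neighbours of kept regions within that gap, 15.6% were kept, below the 18.3% over all acetylated hemogen-BRG1 regions. No other acetylated hemogen-BRG1 region lay within that gap of 50.3% of kept regions, 50.8% of those partly called and 38.8% of those in no KO list. By the library lists, kept regions were thus no more often neighbours of each other than their share of all regions, and regions in no KO list more often had a neighbour of some kind.

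The group of 5 spanned chr8:122282393-122324034, 41642 bp that held 12 acetylated hemogen-BRG1 regions, of which 1 was in no KO list. Its first member, chr8:122282393-122288853, was 6461 bp wide with a mean percentile of 99.2 in WT BRG1 and 94.8 in the KO. The others were chr8:122296337-122296721, chr8:122308689-122310500, chr8:122314489-122315243 and chr8:122320126-122324034, with mean KO percentiles of 41.6, 73.8, 40.7 and 81.4. Both narrow members, at 385 and 755 bp, were thus weaker in the KO lists than the 3 wide ones. The WT BRG1 percentiles of the narrow members were also lower, 57.2 and 63.9. Their H3K27ac percentiles were 58.5 and 98.7, the latter equal to that of the wide chr8:122308689-122310500. It came from peaks with summits outside the narrow region.

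**Figure D5:**
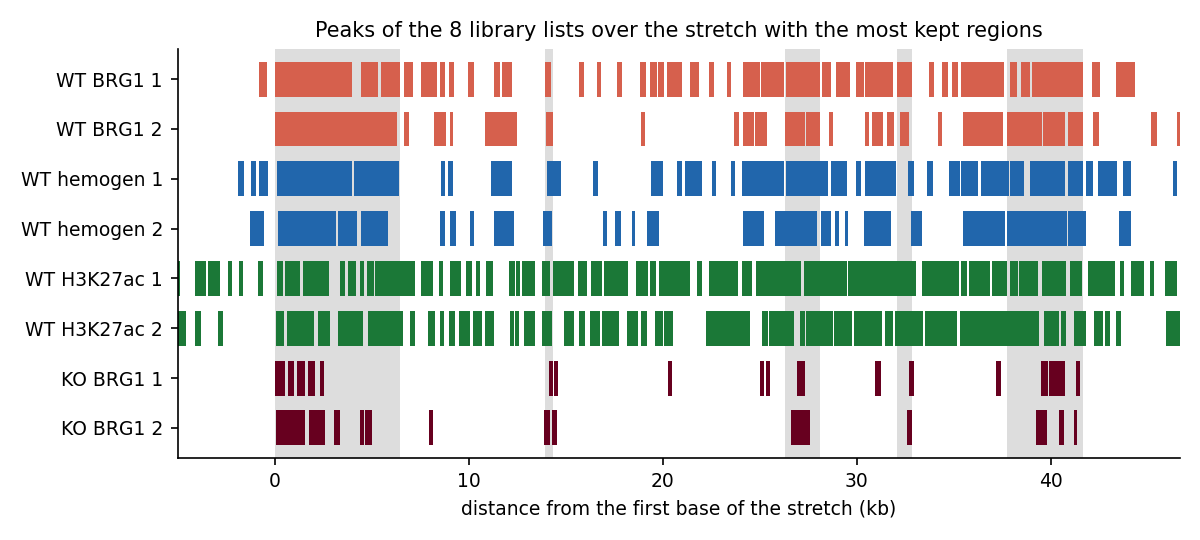
Peaks of the 8 library lists (y axis) across the stretch with the most kept regions, by distance from its first base (x axis, kb). Grey bands are the 5 kept regions, and bars are called peaks. KO BRG1 peaks are narrow and most fall in or at a band. Several lie outside all 5 bands. Among these are library 1 peaks near 20.3 kb (fold 5.34) and from 30935 bp (fold 5.03), and a library 2 peak from 7975 bp (fold 3.17). Hemogen, H3K27ac and WT BRG1 peaks fill much of the stretch.

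Of the 9 groups of 3, those named here had the highest mean KO percentiles, which decided between groups of equal size. Among them, chr5:139371159-139390477 had the highest mean KO percentile, 81.4, over 3 regions that together covered 9516 bp. The group chr13:54680255-54693870 held 3 acetylated hemogen-BRG1 regions, and all 3 were kept. Its middle region, chr13:54687065-54687989, had a mean percentile of 56.5 in WT BRG1 and 86.6 in the KO. All 3 were also kept in chr10:127288171-127292645, a group with a mean KO percentile of 45.2. The groups chr11:97415498-97436339 and chr8:84969014-84986291 each held 5 acetylated hemogen-BRG1 regions, 3 of them kept and 1 in no KO list.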

How the data were processed

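Mouse fetal liver chromatin of embryos at day 14.5 was analysed from 8 library lists and 4 group lists of peaks. The submitters' processing notes list MACS2 2.2.7.1, Bowtie2 2.3.5, Picard 2.21.4 and SAMtools 1.9, without role or order, and no source used here names the genome build. Per the file contents, peaks on chromosome 1 start as far as position 195241899, which fits mm10. The authors' deposited lists hold for each peak its −log10 q-value, its −log10 p-value and its fold, a ratio of summit height to local background. All 3 were computed by the authors and were used only to rank, filter and describe peaks within a list. No source used here says how the group lists were made from the libraries.

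Groups came from the sample titles. Relative depth was computed from up to 4000 peaks per list, on the assumption that the fold is (height + 1) / (background + 1) and that the p-value is the Poisson probability of a greater height. Heights then came out whole, within 0.01, for 100% of peaks in every list. Peak numbers and depth limit the precision, and intervals for single counts were not computed.

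The regions and lists were chosen with earlier results of these data known. The naming rule took 10 regions by their lowest percentile over 8 lists, 5 by KO strength and 5 weakest in WT. It also took 5 on each side of the threshold and the 5 stretches with the most members. Stretches with equal numbers of members were ordered by mean KO percentile. Of the 5 just inside and just outside, 2 each are printed. The alternatives were 50% overlap, −log10 q of at least 5, group lists, each library left out, either KO list, trimmed BRG1 lists, percentiles of fold, nearest summits, a 5 kb gap and the replicate block. Cut WT lists, recovered heights, quintiles, and deciles other than those of WT BRG1 strength were chosen after seeing the data. So was the comparison between classes of the share of summits inside H3K27ac peaks. A mouse genome and annotation were not used here, so the planned promoter share, motif share, gene lists and sequences were left out. Overlap and depth steps were tested on simulated data. Work was done in Python 3.11.15 with SciPy 1.17.1, pandas 2.3.3, Matplotlib 3.10.9 and NumPy 2.4.6.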

Additional observations from a re-analysis of the deposited data

How the results depend on the processing

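Leaving out KO library 1 raised the number of kept regions from 1506 to 3325, and leaving out KO library 2 raised it to 2193; without any other library it stayed between 1495 and 1553. Over all 8 left-out libraries the share kept ran from 13.6% to 40.4% and the median percentiles from 83.9 to 92.5 for WT BRG1, 88.7 to 93.0 for hemogen and 86.3 to 94.3 for H3K27ac. The median width ran from 1143 to 1746 bp. Median distances from the WT BRG1 summit ran from 154 to 185.5 bp for KO BRG1, 300.5 to 388 bp for hemogen and 150 to 159 bp for H3K27ac, and the share near another kept region from 13.1% to 26.9%. The excess of kept regions over regions in no KO list in WT BRG1 summits inside an H3K27ac peak, 19.3 percentage points, ran from 14.8 to 21.8 points. In that order, a −log10 q of at least 5 gave 184 regions, 5.59%, percentiles of 92.7, 88.3 and 87.0, 2325 bp, 206.75, 552.5 and 189 bp, 3.26% and 15.6 points. A peak in either KO list gave 4012 regions, 48.8%, 82.7, 88.1 and 85.7, 1328 bp, 170, 294.5 and 153.25 bp, 29.7% and 14.2 points. Group lists gave 8809 regions, 35.5%, percentiles of 83.4 for BRG1 and 94.0 for H3K27ac, 1009 bp, 121, 232 and 136 bp, 51.5% and 11.3 points. An overlap of 50% moved the share kept to 20.5%, the H3K27ac distance to 153 bp and the excess to 12.7 points. BRG1 lists trimmed to the shortest gave 596 regions, 38.9%. Percentiles of fold gave 83.1, 85.8 and 81.6. Taking the nearest summits gave 139.375 bp for KO BRG1, 246.5 bp for hemogen and 122.75 bp for H3K27ac, and a 5 kb gap gave 9.23%. The replicate block, which joined only libraries of the same number, gave 1459 regions and moved the H3K27ac distance to 152.5 bp and the excess to 15.1 points. The labels do not say that a number pairs libraries. The differences between libraries 1 and 2 correlated at 0.17 to 0.22 among the WT groups and at −0.03 to 0.03 between WT groups and KO BRG1. The cause of these shifts was not tested.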

Other observations

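A further 88 WT BRG1 regions were in both KO library lists without meeting the rule on the WT marks. Of these, 78 lacked an H3K27ac region found in both libraries, 6 lacked a hemogen region and 4 lacked both. Of the 78, 48 overlapped an H3K27ac peak of library 1 and 28 one of library 2, and 74 overlapped the H3K27ac group list, so most were not free of the mark in every list. The 88 regions had a median width of 965 bp, against 1746 bp in kept regions. Their median percentile was 69.9 in WT BRG1 and 49.0 in KO BRG1, against 90.3 and 59.4.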
